A study of Mus musculus with 3 samples.

Results

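Dendritic cells that carry Cd209a, Clec10a and high MHC class II RNA were studied among bone marrow cells of C57BL/6J mice. Marrow of the femur and tibia was run over Ficoll, and single cells were sequenced by the 10x droplet method, which counts the 3' ends of transcripts. There was 1 library for each of 3 groups: MI-E (infarcted mice given EMPA, an agent the labels name only by this abbreviation), MI (infarcted mice, with the LAD coronary artery ligated) and Sham. The labels give the same surgical text to every group, so what the Sham operation left out, and the dose and time of EMPA, are not given in the sources used here, and neither is the number of mice behind a library. With 1 library per group no difference could be tested. Every value describes these libraries, and every 95% interval covers counting error only.

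A cell was a member when H2-Aa, H2-Ab1 and H2-Eb1 together had at least 8 UMIs (counted molecules) and Cd209a and Clec10a together had at least 2. It also had 0 UMIs of Cd79a (B cells), at most 1 of Siglech (plasmacytoid dendritic cells) and at most 2 of C1qa, C1qb and C1qc together (macrophages). Members were thus chosen by measured values of these genes, which describe the cells and test nothing. The rule found 762 of the 71014 cells kept, with 278 of 22506 in MI-E, 227 of 23455 in MI and 257 of 25053 in Sham. Members had a median of 3632.5 UMIs in MI-E, 4029 in MI and 3919 in Sham, and together held 1398212, 1293328 and 1253177 UMIs in the same order of groups. Single members ranged from 727 to 39697 UMIs.

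Conventional dendritic cells take up antigen, cut it into peptides and display the peptides on MHC class II to CD4 T cells. H2-Aa, H2-Ab1 and H2-Eb1 encode the class II chains themselves, Cd74 the invariant chain that guards their groove, and H2-DMa and H2-DMb1 the chaperone that swaps in the peptide. Cd209a is a mouse relative of human DC-SIGN, and Clec10a and its neighbour Mgl2 are lectins for galactose-type sugars; all of them are surface C-type lectins used to recognise type 2 conventional and monocyte-derived dendritic cells. In the marrow these cells arise from progenitors that depend on the growth factor receptor Flt3, and class II cells can also form from Ly6C-high monocytes. Type I interferon, which plasmacytoid dendritic cells can make in large amounts, sets the level of a large group of antiviral genes in all of them.

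The label fitted many of the markers, and monocyte genes were present as well. Ckb, a brain-type creatine kinase that is a marker of these cells and was not part of the rule, had 197 counts per 1000000 UMIs (CPM) in MI-E, 141 in MI and 123 in Sham members. In all other cells kept it had 11.4 CPM in MI-E, 7.84 in MI and 12.1 in Sham. Among genes with at least 50 CPM in the members of every library, the highest ratios to all other cells were those of Cd209a (at least 62.4-fold in each library) and Clec10a (25.2), which the rule fixed. They were followed outside the rule by the C-type lectin Clec4b1 and then Mgl2 (10.4), Ckb (10.2), H2-DMb1 (9.7), the mannose receptor Mrc1 (9.1), Cd74 (8.9), Tmem176b (8.3) and Tmem176a (7.6). Cysltr1, a leukotriene receptor, and Hpgd, which breaks down prostaglandins, stood at 7.5 and 7.4. Zbtb46, a factor of conventional dendritic cells, had 11.4, 13.1 and 10.4 CPM in MI-E, MI and Sham members and 0.480, 0.323 and 0.608 CPM in classical monocytes. Xcr1, the receptor of type 1 conventional dendritic cells, and Ccr7, the homing receptor of matured ones, were at 0 UMIs in the members of all 3 libraries, which allows up to 2.15 CPM in MI-E, 2.32 in MI and 2.39 in Sham. In MI-E, MI and Sham members, 42 type 2 and shared dendritic genes summed to 285%, 271% and 253% of their level over all cells. Of these genes 6, 6 and 9 were at 0 UMIs, with Esam, Clec4a4, Ccl22 and Adam23 at 0 in every library. The 31 monocyte genes summed to 80.0%, 88.2% and 152% of their level over all cells.

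The genes of the rule were described only. H2-Aa (chr17:34282744-34287823, minus strand, mm10 as for all positions of genes given here) had 6117 CPM in MI-E, 4629 in MI and 5924 in Sham members. Cd209a (chr8:3743397-3748984, minus strand) had 692, 421 and 969 CPM, and Clec10a (chr11:70156197-70170834, plus strand) had 450, 399 and 422 CPM in the same order. The 3 class II chains together had a median of 77.5 UMIs per member in MI-E, 65 in MI and 74 in Sham, far from the threshold: 6, 4 and 9 members lay at 8 to 10 UMIs, and 11, 5 and 9 cells lay outside at 5 to 7. The lectins were close to theirs, with medians of 5, 4 and 5 UMIs. Members with exactly 2 lectin UMIs numbered 38 in MI-E, 69 in MI and 48 in Sham, and 69, 68 and 49 cells with 1 lectin UMI were otherwise inside. Among class II cells that passed the other terms of the rule, members made up 34.1% in MI-E, 37.2% in MI and 41.8% in Sham. Among B cells (Cd79a and Cd79b together at least 3 UMIs), which should lack these lectins, 0.890%, 0.795% and 1.26% had 2 lectin UMIs or more, at median depths of 1280, 1263 and 1618 UMIs.

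RNA of other cell types was present in some members. S100a8 and S100a9, neutrophil calgranulins, took at least 1% of the UMIs of 36 MI-E, 49 MI and 19 Sham members, and 25, 34 and 15 of those were called doublets; doublet calls covered 11.5%, 16.7% and 9.73% of all members. The 16 neutrophil markers summed to 44313 CPM in MI-E, 67938 in MI and 42760 in Sham members, and to 3058, 4131 and 2488 CPM without the members rich in S100a8 and S100a9. The 11 erythroid markers summed to 2788 CPM in MI-E, 2797 in MI and 12123 in Sham members, and to 910, 703 and 3630 CPM with doublets removed. Between each pair of libraries, 152 to 167 cell barcodes were shared, 0.675% to 0.733% of the cells of the smaller library.

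Members made up 1.24% (1.10 to 1.39) of the cells kept in MI-E, 0.968% (0.846 to 1.10) in MI and 1.03% (0.905 to 1.16) in Sham. The ratio was 0.943 (0.786 to 1.13) for MI over Sham, an interval that holds 1. It was 1.28 (1.07 to 1.53) for MI-E over MI and 1.20 (1.01 to 1.43) for MI-E over Sham. The share in MI stood further below both others once depth was made equal. With each cell thinned to 2000 UMIs before the rule was applied, which left out the 37.4% of MI-E, 29.8% of MI and 42.1% of Sham cells that were shallower, members made up 1.38% in MI-E, 0.741% in MI and 1.21% in Sham. Among cells outside the neutrophil and B sets the shares were 2.49% in MI-E, 1.94% in MI and 2.82% in Sham, so that MI-E lay below Sham there. With a minimum of 1 lectin UMI the shares were 1.54% in MI-E, 1.26% in MI and 1.22% in Sham, so that MI lay above Sham. The Ficoll step and the changing shares of other cell types enter any share of this kind, and their part in it was not tested.

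**Figure D1:**
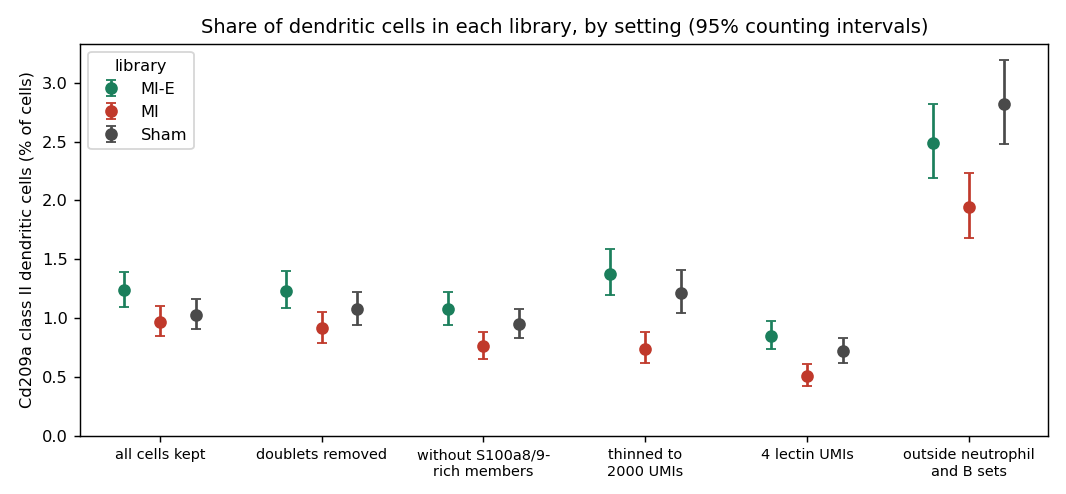
Share of Cd209a class II dendritic cells in MI-E, MI and Sham (vertical axis, percent of cells) under 6 settings (horizontal axis); points are the single libraries and bars are exact 95% counting intervals. MI is the lowest library in each of these 6 settings, at 0.968% of all cells kept and 0.741% of cells thinned to 2000 UMIs, while MI-E lies above Sham in 5 settings and below it outside the neutrophil and B sets.

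How these cells differed after infarction was read from MI over Sham, where a lower interferon response was the broadest difference. Ifi27l2a (chr12:103442167-103443680, minus strand), an interferon-induced mitochondrial protein gene, had 259 CPM in MI-E and 222 CPM in MI members, against 2356 CPM in Sham members. Its ratio was 0.0942 (0.0832 to 0.106) for MI over Sham and 0.110 (0.0983 to 0.123) for MI-E over Sham. Of the 52 interferon response genes with a mean of at least 10 CPM, 51 were lower in MI than in Sham and 1, Oas2, was higher (24.0 against 21.5 CPM), with a median log2 ratio of -1.15, and 33 were at least 2-fold lower. Among all 7367 genes at that minimum, 61.5% were higher and 38.5% lower in MI, 5.51% at least 2-fold higher and 2.62% at least 2-fold lower, with a median log2 ratio of 0.13. The median of the list lay between -1.29 and -0.92 under all 12 alternatives of scaling, members and thresholds.

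Irf7, the factor that amplifies interferon production, had 25.0 CPM in MI-E, 27.8 in MI and 117 in Sham members, a ratio of 0.237 (0.160 to 0.344) for MI over Sham. Ifi204, an interferon-inducible DNA sensor, had 37.2, 30.2 and 134 CPM in that order, and Oasl2, an antiviral synthetase-like gene, had a ratio of MI over Sham of 0.285 (0.190 to 0.419). In each of these genes both infarct libraries lay far below Sham and close to each other. Isg15, a ubiquitin-like modifier, had 12.9 CPM in MI-E, 27.1 in MI and 127 in Sham members, but 64 of its 159 Sham UMIs came from 1 cell. With doublets removed its log2 ratio of MI over Sham was -1.26 in place of -2.23, and without each library's top cell it was -1.66. Other members of the list, taken for their high mean level, stood closer to 1 than Ifi27l2a: Ifitm3, which blocks viral entry, had 1862, 2152 and 3869 CPM, Ly6e 636, 626 and 965 CPM, and Slfn2, a regulator of quiescence in leukocytes, 303, 305 and 373 CPM. Ifitm1 (chr7:140967221-140969825, plus strand), a close relative of Ifitm3 and not in the list, ran the other way, with 457 CPM in MI-E and 865 CPM in MI members, against 60.6 CPM in Sham members.

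Promoters are shown for 4 interferon list genes that RefSeq's table (GRCm38.p6) holds, since genes with and without the response element in this window were lower in MI. Each sequence is the 250 bases before the gene's start in RefSeq, 5′ to 3′ on the gene's own strand, and that start can differ from the end of a GENCODE gene span. Capitals mark matches to the core of the interferon-stimulated response element, searched as 2 copies of GAAA with any 2 bases between them, or 2 copies of TTTC spaced alike for the other strand.
Isg15, chr4:156200819-156201068, minus strand: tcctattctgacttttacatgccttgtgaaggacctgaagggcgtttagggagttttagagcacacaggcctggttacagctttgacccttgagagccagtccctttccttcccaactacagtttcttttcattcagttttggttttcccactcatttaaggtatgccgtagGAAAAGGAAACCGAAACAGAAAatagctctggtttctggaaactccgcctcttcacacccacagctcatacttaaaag
Bst2, chr8:71537473-71537722, minus strand: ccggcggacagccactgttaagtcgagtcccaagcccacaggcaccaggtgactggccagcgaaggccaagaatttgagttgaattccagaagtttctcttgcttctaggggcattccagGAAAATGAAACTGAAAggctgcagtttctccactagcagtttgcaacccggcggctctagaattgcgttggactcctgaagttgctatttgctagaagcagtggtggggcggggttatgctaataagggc
Irf7, chr7:141266425-141266674, minus strand: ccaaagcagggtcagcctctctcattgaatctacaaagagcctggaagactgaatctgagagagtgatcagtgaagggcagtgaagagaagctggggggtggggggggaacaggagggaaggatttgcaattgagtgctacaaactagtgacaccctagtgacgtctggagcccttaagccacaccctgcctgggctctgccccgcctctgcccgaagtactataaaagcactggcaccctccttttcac
Oasl2, chr5:114896684-114896933, plus strand: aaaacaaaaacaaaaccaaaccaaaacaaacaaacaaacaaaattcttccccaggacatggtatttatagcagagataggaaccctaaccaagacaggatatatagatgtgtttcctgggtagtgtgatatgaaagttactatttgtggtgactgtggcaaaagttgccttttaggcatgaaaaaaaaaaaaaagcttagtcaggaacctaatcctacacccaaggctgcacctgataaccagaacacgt

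Isg15 held 3 matches, which overlap, with the first base 78, 72 and 66 bases before the start. Bst2, which encodes the antiviral protein tetherin, held 2 overlapping matches at 130 and 124 bases, and had 120 CPM in MI-E, 144 in MI and 301 in Sham members. Irf7 and Oasl2, which were lower in MI, held no match in this window. Of the 52 interferon list genes measured, 41 had a promoter in the table and 19 of those (46.3%) held a match, against 936 of 27025 genes (3.46%) over the whole table. A match describes letters only.

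**Figure D2:**
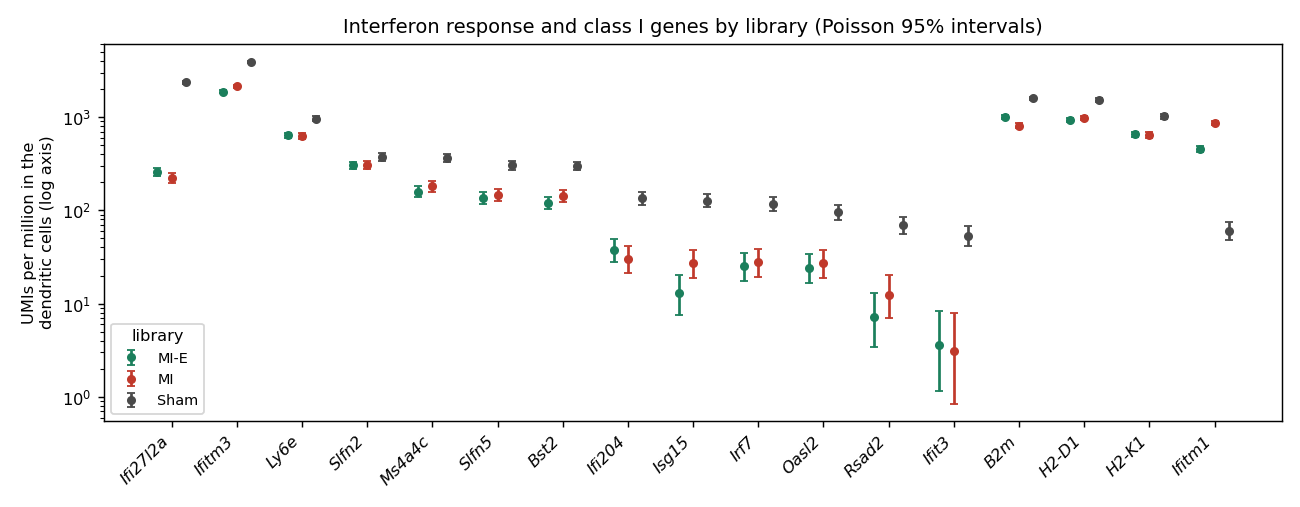
Level of 13 interferon response genes, 3 class I genes and Ifitm1 (horizontal axis) in the members of MI-E, MI and Sham, in CPM on a log axis; points are the single libraries and bars exact Poisson 95% intervals. The MI-E and MI points both lie below Sham in the interferon and class I genes (Irf7 at 25.0 and 27.8 against 117 CPM), and above Sham in Ifitm1 (457 and 865 against 60.6 CPM). In some genes, such as Isg15 and B2m, MI-E and MI stand apart from each other.

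Class I presentation genes, many of which interferon also controls, were lower in MI as well. Of 21 measured, 18 were lower and 3 higher in MI than in Sham, with a median log2 ratio of -0.64. B2m, the light chain of every class I molecule, had 1009 CPM in MI-E, 810 in MI and 1586 in Sham members, and the ratio of MI over Sham was 0.511 (0.474 to 0.551). The heavy chains H2-D1 and H2-K1 had ratios of 0.640 (0.595 to 0.687) and 0.635 (0.581 to 0.693). Of the 16 genes of class II loading, 10 were lower and 6 higher in MI, with a median of -0.31 that ranged from -0.44 to -0.02 over the alternatives. Cd74 had 10675 CPM in MI-E, 8930 in MI and 13423 in Sham members, whereas Ifi30, a lysosomal thiol reductase that unfolds antigen, had 1162, 1181 and 821 CPM. The log2 ratio of MI over Sham for Cd74 was -0.59. It was -0.73 by TMM scaling, -0.38 with members thinned to 2000 UMIs and -0.31 without the members rich in S100a8 and S100a9. All 19 class II loading genes summed to 15438 CPM in MI-E, 13290.5 in MI and 18114 in Sham members. Without the S100-rich members the sums were 17773, 17370 and 19882 CPM.

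Over all genes with a mean of at least 50 CPM, 51 of 2568 (1.99%) were at least 2-fold higher in MI than in Sham members and 47 (1.83%) at least 2-fold lower. TMM scaling gave 39 higher and 64 lower, and median-of-ratios scaling 42 and 64; these scalings lower every log2 ratio of MI over Sham by 0.14 and 0.13. The 10 genes ranked first as higher were Ifitm1, Fkbp5, Fgfr1, Id2, Mt1, Pla2g7, Cd300lf, Cd33, Lrg1 and Chil3. The 10 ranked first as lower were Ifi27l2a, Ccnd1, Fosb, Isg15, Ifi204, Irf7, Hacd4, Oasl2, Mgl2 and Lst1, and 5 of these stood in the interferon list. All 20 kept their direction under every alternative run.

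Fgfr1 (chr8:25513654-25575718, plus strand), a fibroblast growth factor receptor, had 145 CPM in MI-E and 141 CPM in MI members, against 18.4 CPM in Sham members. The ratios to Sham were 7.91 (5.13 to 12.8) for MI-E and 7.71 (4.98 to 12.5) for MI, and the 2 infarct libraries lay together. All other cells kept had 4.40 CPM in MI-E, 3.37 in MI and 1.55 in Sham. Fkbp5 (chr17:28399094-28517527, minus strand), a chaperone of the glucocorticoid receptor and itself a glucocorticoid target, had 111 CPM in MI-E and 120 in MI against 14.4 in Sham members. Tsc22d3, another glucocorticoid target also called GILZ, had 157, 189 and 85.4 CPM in MI-E, MI and Sham. The list of 23 such genes had 14 (60.9%) higher and 9 lower in MI, close to the 61.5% higher over all genes with at least 10 CPM. In the list, 8 genes (34.8%) were at least 2-fold higher and 0 at least 2-fold lower, beside 5.51% and 2.62% of all genes. The median log2 ratio of the list was 0.24, beside 0.13 over all genes, and was -0.029 with a minimum of 50 CPM. Ddit4, Klf9 and Pik3ip1, chosen after their values were seen, had 57.9, 65.1 and 27.2 CPM in MI-E, 71.9, 42.5 and 24.0 CPM in MI, and 6.38, 10.4 and 4.79 CPM in Sham members.

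Id2 (chr12:25093799-25097140, minus strand), an inhibitor of helix-loop-helix factors that the dendritic lineages use, had 312 CPM in MI-E, 535 in MI and 74.2 in Sham members. Its ratio was 7.21 (5.80 to 9.05) for MI over Sham and 4.20 (3.35 to 5.31) for MI-E over Sham, and MI-E lay between the other libraries, at 0.583 (0.516 to 0.658) of MI. Mt1, a metallothionein that binds zinc, had 136, 254 and 42.3 CPM, and Ifitm1 had the same order of libraries. The Ifitm1 ratio of MI over Sham was 14.3 (11.3 to 18.2), with 38 of its 76 Sham UMIs in 1 cell. Its log2 ratio was 3.83, or 5.83 with doublets removed and 4.75 without each library's top cell.

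The remaining genes ranked as higher in MI are known from neutrophils and monocytes as well. Chil3, a chitinase-like protein, had 1345, 2163 and 577 CPM in MI-E, MI and Sham members but 4068, 4284 and 1114 CPM in all other cells. Lrg1, an acute-phase glycoprotein, had 114, 156 and 39.9 CPM, and Cd33, a sialic acid receptor, had a ratio of MI over Sham of 4.50 (3.25 to 6.36). Cd300lf, an inhibitory receptor, had 50.8, 99.7 and 18.4 CPM, and Pla2g7, which inactivates platelet-activating factor, had 38.6, 88.9 and 15.2 CPM. Without the members rich in S100a8 and S100a9, the log2 ratio of MI over Sham was 2.58 in place of 1.91 for Chil3, 3.55 in place of 1.97 for Lrg1 and 2.79 in place of 2.17 for Cd33. Without dividing members it was 2.99 for Chil3, 4.02 for Lrg1, 4.11 in place of 3.06 for Fkbp5 and 3.18 in place of 2.59 for Mt1, and with at least 4 lectin UMIs it was 3.40 in place of 2.55 for Pla2g7. The list of S100, acute phase and stefin genes had 16 of 22 higher in MI, with a median of 0.68 beside the neutrophil marker sums given above.

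Ccnd1, cyclin D1, had 47.2 CPM in MI-E and 19.3 CPM in MI members, against 159 CPM in Sham members, a ratio of 0.122 (0.0769 to 0.185) for MI over Sham. With members thinned to 2000 UMIs its log2 ratio was -4.37 in place of -3.04. Fosb, an immediate early gene, had 22.9, 17.8 and 118 CPM in MI-E, MI and Sham. Of the 33 genes of its list, which also holds heat shock genes and answers to stress during cell handling, 26 were lower and 7 higher in MI, with a median of -0.44. Lst1, a leukocyte transcript of the class III region, had 202, 179 and 531 CPM, and Hacd4, a fatty acid elongation enzyme, had 45.8, 27.8 and 109 CPM. Both infarct libraries lay below Sham in all 4 genes.

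Receptors and factors of the dendritic lineage did not move one way. Flt3 had 279 CPM in MI-E, 210 in MI and 117 in Sham members, a ratio of 1.81 (1.47 to 2.22) for MI over Sham and 2.39 (1.97 to 2.92) for MI-E over Sham. Ffar2, a receptor of short-chain fatty acids, had 69.4, 58.0 and 14.4 CPM, and its log2 ratio of MI over Sham was 2.01, but 3.43 with doublets removed and 4.89 without dividing members. Il18rap, part of the interleukin 18 receptor, had 82.2, 79.6 and 19.2 CPM, with log2 ratios of MI over Sham of 2.06 and, with doublets removed, 3.11. Cx3cr1, the fractalkine receptor, was lower, at 274 CPM in MI-E and 207 in MI against 377 in Sham members, and so was Zeb2, a factor that holds back Id2, at 472 and 339 against 539 CPM. Of the 28 genes of type 2 and shared dendritic cells, 15 were higher and 13 lower in MI, with a median of 0.07. The 33 transcription factors split 16 to 17 with a median of -0.07, and the 27 cytokine receptors 14 to 13 with a median of 0.04. Of the 11 chemokine receptors measured, 7 (63.6%) were higher and 4 lower, with a median of 0.75. Over all genes with at least 10 CPM, 61.5% were higher in MI, with a median of 0.13. The shares higher were 53.6% for the type 2 and shared dendritic genes, 48.5% for the transcription factors and 51.9% for the cytokine receptors.

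Some monocyte and metabolic genes also differed. Lyz2, lysozyme, was the most abundant of them, with 3182 CPM in MI-E, 3890 in MI and 9449 in Sham members. Its ratio was 0.412 (0.398 to 0.426) for MI over Sham. The 30 genes of the monocyte list split 14 higher to 16 lower with a median of -0.09, but differed in both directions. Of these, 8 (26.7%) were at least 2-fold higher and 4 (13.3%) at least 2-fold lower in MI, beside 5.51% and 2.62% of all genes. Psap, the precursor of lysosomal saposins, had 1468, 1140 and 2430 CPM, and 21 of 32 lysosome and phagocytosis genes were lower in MI with a median of -0.23. Glycolysis genes had a median of 0.60, with 12 of 18 (66.7%) higher, beside 61.5% higher over all genes with at least 10 CPM. Gapdh had 948, 1207 and 716 CPM, Pkm, pyruvate kinase, 388, 480 and 254 CPM, and Gpi1 437, 453 and 296 CPM. The log2 ratio of MI over Sham for Gpi1 was 0.61, but 0.42 with doublets removed and 0.35 without the members rich in S100a8 and S100a9. Of 47 oxidative phosphorylation genes 33 were higher, with a median of 0.14 that was close to the 0.13 of all genes. The cold-induced RNA-binding protein genes Rbm3 and Cirbp had 872 and 157 CPM in MI-E, 1048 and 128 CPM in MI, and 400 and 83.0 CPM in Sham members.

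The ratios of MI over Sham were set beside those of 3 other sets of cells from the same libraries: 1092 class II cells without either lectin, 7244 classical monocytes and 1574 plasmacytoid dendritic cells. The interferon list had medians of -1.15 in the members, -1.32 in the class II cells without lectin, -1.47 in the monocytes and -0.51 in the plasmacytoid cells. Ifi27l2a had ratios of 0.0942 in the members, 0.0972 and 0.0898 in the next sets and 0.315 in the plasmacytoid cells, so the lower level in MI was shared by all 4 sets and was smallest in the last. Fgfr1 and Id2 stood further from 1 in the members: Fgfr1 had ratios of 7.71 (4.98 to 12.5) in the members, 2.73 (1.65 to 4.73) in class II cells without lectin and 2.36 (1.66 to 3.37) in plasmacytoid cells. Id2 had ratios of 7.21 in the members, 1.95 in class II cells without lectin, 2.77 in monocytes and 2.61 in plasmacytoid cells, and its intervals in the other sets ended below that of the members. Ccnd1 had a ratio of 0.122 (0.0769 to 0.185) in the members against 0.530 in class II cells without lectin and 0.553 in plasmacytoid cells. Rbm3 had ratios of 2.62, 2.91, 2.81 and 2.41 in members, class II cells without lectin, monocytes and plasmacytoid cells. C1q cells were not part of this comparison, and no ratio in monocytes is given for Fgfr1 and Ccnd1. With 1 library per group no difference between sets was tested.

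**Figure D3:**
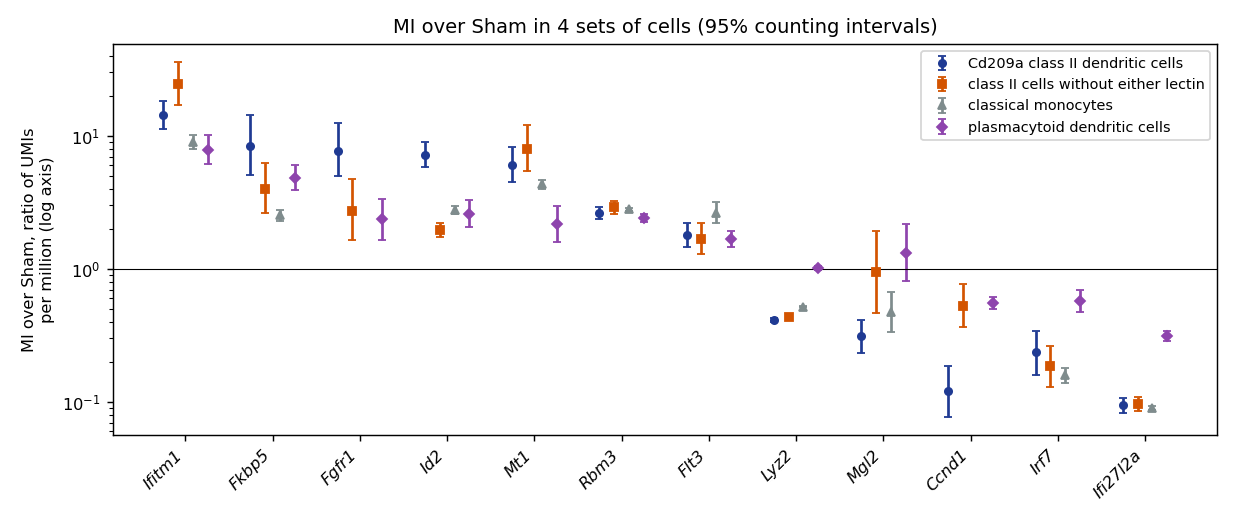
Ratio of CPM in MI over Sham (vertical log axis) for 12 genes (horizontal axis) in 4 sets of cells, with exact 95% counting intervals; points with under 5 CPM in both libraries are left out. Ifi27l2a is near 0.09 in 3 sets and 0.315 in plasmacytoid dendritic cells, while Id2 is 7.21 in the members and between 1.95 and 2.77 in the other sets shown.

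The second comparison, MI-E over MI, asks what EMPA was associated with after infarction, and it held few large differences. Of 2674 genes with a mean of at least 50 CPM, 9 (0.337%) were at least 2-fold higher in MI-E and 7 (0.262%) at least 2-fold lower; median-of-ratios scaling gave 8 and 10. Genes ranked first as higher included Abcg1, Mgl2, H1f0, Bach2, Naaa, Mrc1 and Sdc3. The 8 ranked first as lower were Il1r2, Pla2g7, Hist1h1b, Plin2, S100a11, Ifitm1, Mt1 and Dynll1. The interferon list was little different, with 16 of 52 members higher and 36 lower and a median of -0.17, beside 53.7% higher, 46.3% lower and a median of 0.03 over all genes with at least 10 CPM.

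Abcg1 (chr17:31057675-31117988, plus strand), which exports cholesterol, had 117 CPM in MI-E members, against 30.2 CPM in MI members, with 71.0 CPM in Sham members. Its ratio of MI-E over MI was 3.89 (2.73 to 5.67), and its ratios in class II cells without lectin, monocytes and plasmacytoid cells were 2.09, 2.29 and 1.13. Mgl2 (chr11:70130329-70137550, plus strand), the lectin beside Clec10a, had 142 CPM in MI-E against 50.3 CPM in MI members, and 161 CPM in Sham members. Mrc1 (chr2:14229392-14332057, plus strand), the mannose receptor, had 142, 66.5 and 145 CPM, and Naaa, a lysosomal amidase that is high in type 1 dendritic cells, had 188, 86.6 and 184 CPM. Sdc3, a heparan sulfate proteoglycan, had 95.8, 46.4 and 138 CPM. In these 5 genes MI was the lowest library: the ratios of MI over Sham were 0.425 (0.284 to 0.625) for Abcg1, 0.312 (0.232 to 0.414) for Mgl2, 0.458 (0.350 to 0.595) for Mrc1, 0.470 (0.371 to 0.591) for Naaa and 0.336 (0.246 to 0.453) for Sdc3. The log2 ratio of MI-E over MI for Mgl2 was 1.49, but 0.96 with at least 4 lectin UMIs and 1.94 without each library's top cell. Its log2 ratio of MI over Sham was -1.68, but -1.19 without the members rich in S100a8 and S100a9 and -2.16 without each library's top cell. For Sdc3, MI-E over MI was 0.55 in place of 1.05 with members thinned to 2000 UMIs. In all other cells the levels over the 3 libraries were 4.83 to 9.77 CPM for Mgl2 and 5.13 to 9.39 CPM for Mrc1.

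H1f0, a linker histone of cells that have stopped dividing, had 142 CPM in MI-E, 60.3 in MI and 67.0 in Sham members, a ratio of MI-E over MI of 2.36 (1.81 to 3.11). It was higher in MI-E than in MI in the other sets too, by ratios of 2.60, 2.50 and 3.39 in class II cells without lectin, monocytes and plasmacytoid cells. Bach2, a transcriptional repressor, had 78.7, 35.6 and 30.3 CPM. In both genes MI-E stood above the other libraries.

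Il1r2, the decoy receptor that binds interleukin 1 without a signal, had 24.3 CPM in MI-E and 87.4 CPM in MI members, and 5.59 CPM in Sham members. The ratio of MI-E over MI was 0.278 (0.184 to 0.412). Plin2, a coat protein of lipid droplets, had 73.0, 145 and 73.4 CPM, S100a11 had 664, 1284 and 786 CPM, and Dynll1, a dynein light chain, had 235, 428 and 315 CPM. Pla2g7, Mt1 and Ifitm1, which were among the genes higher in MI than in Sham, had ratios of MI-E over MI of 0.434 (0.308 to 0.605), 0.534 (0.444 to 0.641) and 0.528 (0.479 to 0.583), and their MI-E levels still lay above Sham. Hist1h1b, a replication-dependent linker histone, had 75.8, 159 and 136 CPM, and its log2 ratio of MI-E over MI was -1.07, but -0.47 without dividing members and -0.21 without the members rich in S100a8 and S100a9. The S100 list had 19 of 22 genes lower in MI-E than in MI, a median of -0.58, and the neutrophil markers were also lower in MI-E members, as given above.

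**Figure D4:**
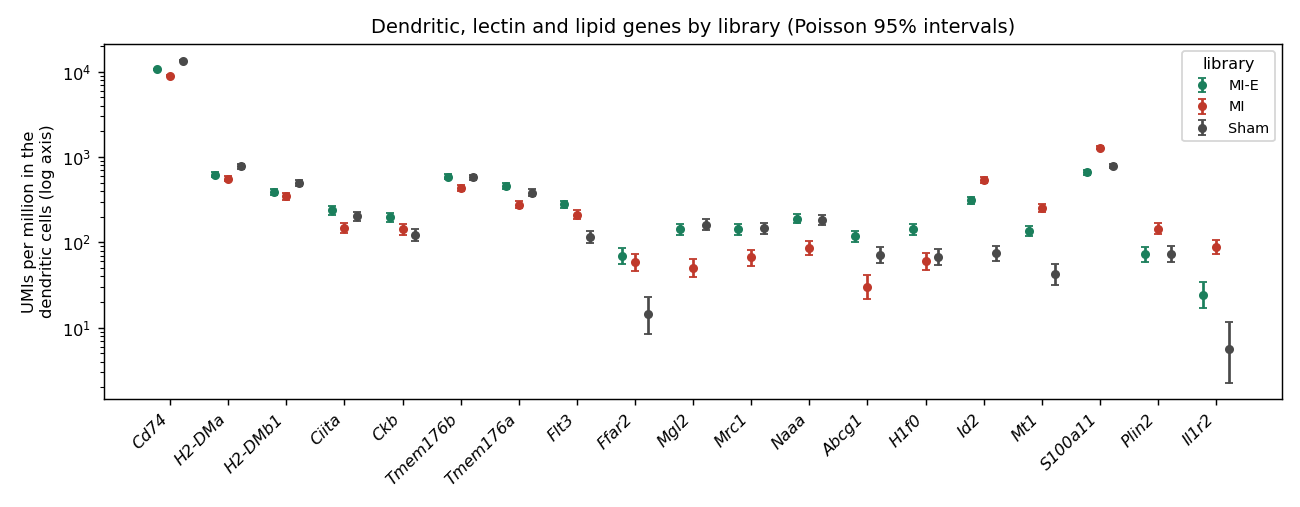
Level of 19 dendritic, lectin, lipid and acute-phase genes (horizontal axis) in the members of MI-E, MI and Sham, in CPM on a log axis; points are the single libraries and bars exact Poisson 95% intervals. Mgl2, Mrc1, Naaa and Abcg1 are lowest in MI (50.3, 66.5, 86.6 and 30.2 CPM), while Id2, Mt1, S100a11, Plin2 and Il1r2 are highest in MI.

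Dendritic genes as a group were somewhat higher in MI-E than in MI. Over all genes with at least 10 CPM, 53.7% were higher and 46.3% lower in MI-E, with a median log2 ratio of 0.03. Of the 28 type 2 and shared dendritic genes, 24 were higher and 4 lower, with a median log2 ratio of 0.35 that ranged from 0.21 to 0.43 over the alternatives. The same list had a median of -0.01 with 14 of 28 higher in class II cells without lectin, 0.13 with 13 of 17 higher in classical monocytes, 0.01 with 13 of 26 higher in plasmacytoid cells and 0.36 with 18 of 26 higher in C1q cells. The higher level was thus not seen in the members alone. Tmem176a, a membrane protein abundant in these cells, had 457 CPM in MI-E against 277 CPM in MI members, a ratio of 1.65 (1.45 to 1.88). Flt3 had a ratio of 1.33 (1.13 to 1.55), and Ciita, the master activator of class II genes, had 236 CPM against 148 CPM, a ratio of 1.60 (1.33 to 1.92). These ratios were smaller under some settings. The log2 ratio of Flt3 was 0.10 in place of 0.41 with members thinned to 2000 UMIs. That of Ciita was 0.36 in place of 0.68 with at least 4 lectin UMIs. For Tmem176a it was 0.53 in place of 0.72 without the members rich in S100a8 and S100a9. Class II loading genes were higher in 12 of 16, with a median of 0.21. Without the members rich in S100a8 and S100a9, the 19 genes of that list summed to 17773 CPM in MI-E and 17370 in MI. In all members they summed to 15438 and 13290.5 CPM. The class I list had a median of 0.03, and the transcription factors 0.21 with 22 of 33 higher. The C-type lectins had a median of 0.01 with 9 of 16 (56.25%) higher, close to the share of all genes. Glycolysis had -0.05 with 7 of 18 higher, and oxidative phosphorylation -0.13 with 39 of 47 lower. Of 33 immediate early and heat shock genes, 23 were higher, with a median of 0.19.

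The third comparison, MI-E over Sham, shares both its libraries with the others, so its values stand beside theirs and add no independent support. Of 2619 genes, 55 (2.1%) were at least 2-fold higher in MI-E and 42 (1.6%) at least 2-fold lower; TMM scaling gave 34 higher and 53 lower, and median-of-ratios scaling, which lowers every log2 ratio by 0.17, gave 28 and 59. The 5 ranked first as higher were Fgfr1, Fkbp5, Ifitm1, Il18rap and Id2, at ratios between 4.20 and 7.91. The 5 ranked first as lower were Ccl5, Isg15, Ifi27l2a, Ccl3 and Fosb. Ccl5, a T cell-attracting chemokine, had 8.58 CPM in MI-E, 86.6 in MI and 135 in Sham members, with 72 of its 112 MI UMIs in 1 cell. Ccl3, a chemokine of activated myeloid cells, had 13.6, 25.5 and 88.6 CPM. The log2 ratio of MI-E over Sham was -1.93 in place of -2.70 for Ccl3 at 2000 UMIs per member, and without members holding B or T cell RNA it was -3.08 in place of -3.97 for Ccl5 and -2.51 in place of -3.30 for Isg15. With doublets removed it was 4.77 in place of 2.91 for Ifitm1 and 3.08 in place of 2.10 for Il18rap, and without dividing members 3.87 in place of 2.95 for Fkbp5. All 52 interferon list genes were lower in MI-E than in Sham, with a median of -1.32 and 35 at least 2-fold lower, beside 65.6% higher, 34.4% lower, 5.28% at least 2-fold higher and 2% at least 2-fold lower over all genes with at least 10 CPM. Ckb had a ratio of 1.61 (1.31 to 1.97).

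Members differed among themselves in 3 ways. Both lectins were detected in 72.7% of MI-E, 65.6% of MI and 63.4% of Sham members, Cd209a alone in 20.9%, 15.4% and 26.8%, and Clec10a alone in 6.47%, 18.9% and 9.73%; the rule used these counts. In Sham, the 25 members with Clec10a alone had 4726 CPM of Ifi27l2a and 14649 CPM of Lyz2. The 163 Sham members with both lectins had 2151 and 8675 CPM, and the 69 with Cd209a alone had 2096 and 9771 CPM. In MI-E and MI members the classes by lectin ranged from 210 to 276 and from 211 to 251 CPM of Ifi27l2a.

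Ly6c2, a surface protein of classical monocytes, had at least 2 UMIs in 18.7% of MI-E, 26.9% of MI and 42.4% of Sham members. With members thinned to 2000 UMIs, which left out 11 in MI-E, 9 in MI and 12 in Sham, the shares were 10.1% (6.77 to 14.4), 13.3% (9.09 to 18.5) and 29.8% (24.1 to 35.9). Among B cells, 961 of 5957 in MI-E, 834 of 4654 in MI and 1736 of 13333 in Sham had as many unthinned, and at 2000 UMIs the shares were 27.9%, 33.0% and 20.5% of the 1929, 1480 and 5371 deep enough to stay. B cells thus give no floor for this gene, and no difference in its expression was read from these shares. Classical monocytes, which were gated in part on this gene, had 63.6%, 67.8% and 82.4%. In Sham, members with Ly6c2 had 716 CPM of Cd209a, 4210 of H2-Aa and 12398 of Lyz2, against 1277, 8014 and 5854 CPM in members under 2 UMIs. In MI-E and MI the members with Ly6c2 were much deeper, with medians of 9026.5 and 9009 UMIs against 3479.5 and 3598.5 in members under 2 UMIs. Doublet calls covered 18 of 52 of these members in MI-E, 28 of 61 in MI and 20 of 109 in Sham. Without doublets their median depths were 8145.5, 8613 and 4174 UMIs, and in Sham they had 848 CPM of Cd209a, 4645 of H2-Aa and 14542 of Lyz2, against 1312, 8298 and 5879 CPM in members under 2 UMIs. Ifi27l2a was low in both classes of MI-E members (194 and 300 CPM) and of MI members (174 and 270 CPM) and high in both classes of Sham members (2693 and 1944 CPM).

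Dividing members, with at least 3 UMIs of Mki67, Top2a, Cdk1, Birc5, Ccna2 and Ube2c together, made up 10.8% in MI-E, 10.1% in MI and 9.34% in Sham, and 5.99%, 5.05% and 4.90% at 2000 UMIs. Intervals overlapped in all pairs. Dividing members were deep, with medians of 12581.5, 13200 and 9561.5 UMIs. They held less Cd74 RNA in CPM than the others: it had 3759, 2838 and 5400 CPM in dividing members of MI-E, MI and Sham, against 13696, 10970 and 15874.5 CPM in the other members. Kit, the stem cell factor receptor of progenitors, had 49.4, 61.6 and 34.1 CPM in dividing members, against 16.4, 9.29 and 1.04 CPM in the others. Of the dividing members, 12 of 30 in MI-E, 11 of 23 in MI and 10 of 24 in Sham were called doublets. Without doublets, Cd74 had 3989, 3254 and 6508 CPM in dividing members, against 14745, 12681 and 16573 CPM in the others. Kit then had 66.0, 63.6 and 26.9 CPM in dividing members, from 17, 10 and 4 UMIs, against 14.3 and 9.61 CPM in the other members of MI-E and MI and 0 UMIs in those of Sham. Of 32 G2 and M phase genes, 27 were higher in MI-E than in MI, with a median of 0.35 that was -0.39 without dividing members and -0.12 at 2000 UMIs. Matured members (Ccr7, Fscn1 and Cacnb3 together at least 3 UMIs) numbered 0 of 278, 0 of 227 and 0 of 257, which allows up to 1.08%, 1.32% and 1.17% of members with such a count.

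**Figure D5:**
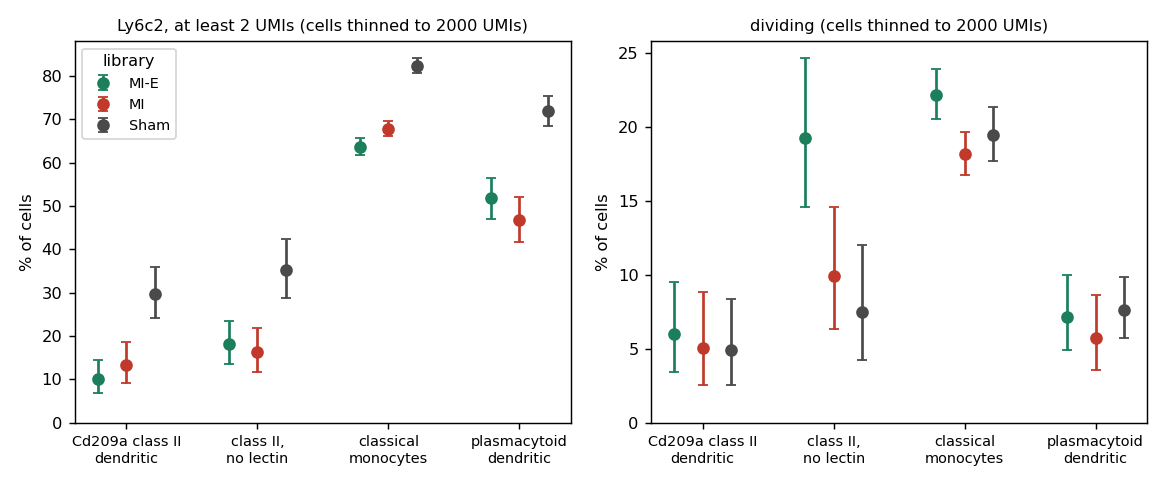
Share of cells with at least 2 UMIs of Ly6c2 (left) and share of dividing cells (right) in 4 sets of cells (horizontal axis) of MI-E, MI and Sham, after thinning each cell to 2000 UMIs; points are the single libraries and bars exact 95% counting intervals. Among members the Ly6c2 share is 10.1% in MI-E, 13.3% in MI and 29.8% in Sham, and the dividing share lies between 4.90% and 5.99%.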

How the data were processed

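Bone marrow cells of 3 groups, with 1 library each, were analysed. The deposited files hold raw UMI counts per gene and cell barcode, made by the authors with Cell Ranger 5.0.1 on mm10, per the submitters' processing notes; no column was left unused (0). The authors' annotation release was not among these notes. Gene positions are those of GENCODE M21 on GRCm38, the assembly of mm10.

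Barcodes entered with 500 UMIs or more, 300 genes or more and a mitochondrial share of no more than 10%. Members and gene lists were chosen with earlier results of these data known. Doublets were called per library by simulated doublets and nearest neighbours, were kept in the main values and were removed as an alternative. Counts of members were summed per library and scaled to 1000000 UMIs (CPM). All intervals are exact and at 95%: Clopper-Pearson for a share, Poisson for a level, conditional binomial for a ratio; a count of 0 allows up to 3 counts. Molecules carry UMIs, and intervals cover counting error only. Genes were named by ratio among those with a mean of at least 50 CPM whose level in members was at least 0.5 times that over all cells, ranked by the interval bound nearest 1 (10, 8 and 5 in each direction for the 3 comparisons), with the genes leading the members, core genes of these cells and up to 4 of the most abundant members of each list. A gene that this rule named is not reported here. Any other gene named was chosen after its values were seen. Ratios and 2-fold calls were run on counts simulated with Poisson error only. That run checks the calculation and leaves out variation between cells and between mice. TMM factors came from edgeR 4.0.16 (R 4.3.3), intervals from scipy 1.17.1, neighbours from scikit-learn 1.9.0 and figures from matplotlib 3.10.9, under Python 3.11.15 with pandas 2.3.3 and numpy 2.4.6.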

Additional observations from a re-analysis of the deposited data

How the results depend on the processing

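No paired analysis was possible because each group has 1 library, and no library could be left out. The log2 ratio of the share of members of MI over Sham was -0.08, but 0.04 with at least 1 lectin UMI, -0.50 with at least 4 lectin UMIs, -0.52 by Cd209a alone, -0.71 at 2000 UMIs per cell, -0.53 at 1000 UMIs and -0.54 outside the neutrophil and B sets. For MI-E over MI it was 0.74 with 4 lectin UMIs, 0.71 by Cd209a alone, 0.89 at 2000 and 0.81 at 1000 UMIs. For MI-E over Sham it turned to -0.18 outside the neutrophil and B sets. Dividing members were 5.99% in MI-E, 5.05% in MI and 4.90% in Sham at 2000 UMIs, and 7.32%, 6.35% and 6.03% with doublets removed. They were 7.44%, 5.06% and 6.72% without the members rich in S100a8 and S100a9, a setting chosen after seeing the data. Members with Ly6c2 were 10.1% in MI-E, 13.3% in MI and 29.8% in Sham at 2000 UMIs. These shares were 13.8%, 17.5% and 38.4% with doublets removed, and 12.4%, 14.6% and 39.5% without the S100-rich members.

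Counts of genes at least 2-fold apart moved under several settings. For MI over Sham, genes higher numbered 81 with cells weighted equally, 86 without B or T cell RNA, 90 without dividing members, 98 thinned and 393 with a minimum of 10 CPM, where 197 were lower. For MI-E over MI, genes higher numbered 16 with equal weights, doublets removed or without B or T cell RNA, 19 without dividing members, 21 with 4 lectin UMIs, 28 thinned, 15 without S100-rich members and 140 at 10 CPM. Genes lower numbered 12 with equal weights, with 4 lectin UMIs or without S100-rich members, 20 with doublets removed, 27 without dividing members, 25 thinned and 97 at 10 CPM. For MI-E over Sham, genes higher numbered 34 by TMM, 28 by median of ratios, 89 thinned and 358 at 10 CPM, where 161 were lower. Of 648 alternative values of 54 list medians, 639 stayed close, 5 moved and 4 turned. G2 and M phase genes turned for MI-E over MI to -0.39 without dividing members and -0.12 thinned, and for MI-E over Sham to -0.00742 without dividing members; with 4 lectin UMIs they moved to 1.10 for MI-E over MI and -0.58 for MI over Sham. Lipid handling moved to -0.95 for MI over Sham and 0.77 for MI-E over MI when thinned, and to 0.87 for the second without S100-rich members. The glucocorticoid list turned to -0.029 for MI over Sham at 50 CPM. Of 891 alternative values of 81 gene ratios, 739 stayed close, 152 moved and 0 were counted as turned. Fgfr1 for MI-E over MI, with a log2 ratio of 0.04, was counted as moved although it changed sign, to -0.42 with 4 lectin UMIs. The cause of these shifts was not tested. Libraries were summed from 1253177 to 1398212 UMIs of members, so genes under about 10 CPM rest on few molecules.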
